A study of Drosophila melanogaster with 9 samples.

Results

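Peptidoglycan recognition proteins (PGRPs) were followed at the RNA level in whole Drosophila melanogaster larvae of 3 genotypes. The 10 genes described here are PGRP-SA, PGRP-SB1, PGRP-SC1a, PGRP-SC1b, PGRP-SC2, PGRP-SD, PGRP-LA, PGRP-LB, PGRP-LE and PGRP-LF, taken by symbol from the 17187 genes and unmatched entries of the count table, and together they held 0.158% of all counts. The genotypes were tuSz1, a strain with melanotic self-encapsulation known to combine an activated allele of the JAK kinase gene hop with a lesion in the N-glycosylation gene GCS1; hopTum, with an activated hop allele; and w1118, a white-eyed laboratory strain that served as the control. Each had 3 libraries, each from 20 pooled larvae raised at 28 °C. The labels give neither sex nor larval stage, and since these are separate strains, a difference between them cannot be assigned to a named allele. The study asked how loss of self-tolerance alters gene expression and the IMD pathway.

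Peptidoglycan is the cell wall polymer of bacteria, and flies detect it with PGRPs. Secreted PGRP-SA starts the Toll cascade on peptidoglycan of the lysine type, typical of many Gram-positive bacteria, and PGRP-SD assists recognition. The membrane receptor PGRP-LC and the largely intracellular PGRP-LE bind the diaminopimelic acid type of Gram-negative bacteria and start the IMD cascade, which ends in the NF-kappaB factor Relish and antimicrobial peptide genes. PGRP-LF blocks PGRP-LC signalling at the membrane, PGRP-LA acts as a regulator in barrier epithelia, and the amidases PGRP-LB, PGRP-SB1, PGRP-SC1a, PGRP-SC1b and PGRP-SC2 cut peptidoglycan. PGRP-LB and the SC amidases thereby dampen IMD signalling in the gut.

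The amidase genes PGRP-SC1a, PGRP-SC2 and PGRP-LB and the regulator gene PGRP-LF rose in tuSz1 over w1118, by 2.53-fold to 13.1-fold. PGRP-SC1b, with 3 to 7 counts in the w1118 libraries, was also called higher. PGRP-SC2, PGRP-LB and the recognition gene PGRP-SD were also higher in tuSz1 than in hopTum, by 2.98-fold to 4.43-fold. Between hopTum and w1118 edgeR called no PGRP gene in the main fit of all libraries, but PGRP-SD lower with scaling to total counts. DESeq2 called PGRP-SB1 lower and PGRP-SC1a higher. Of the 8 edgeR calls in tuSz1, only that of PGRP-LB in tuSz1 over hopTum held whichever library was left out, as stated with each gene. Of 17 tested midgut marker genes, 7 were higher and 1 was lower in tuSz1 than in w1118. Over all tested genes 16.3% were called there, and 9.98% were called higher. The 7 became 2 without w1118 replicate 2 or 3 and with scaling to total counts, and 9 without w1118 replicate 1.

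Total counts were 12041845 to 14517286 in tuSz1, 9552828 to 12180558 in hopTum and 10387052 to 10973053 in w1118. Levels are given in CPM, the usual library-scaled count unit, on library sizes adjusted by the TMM method, where a count of 3 is 0.2 to 0.357 CPM by library. tuSz1 replicate 3 stood apart: its adjustment factor was 0.578, against 0.843 to 1.37 in the other 8 libraries, and its 6 salivary glue genes summed to 33.1 CPM, against 12427 to 61617 CPM in the others. With all 9 libraries in the fit, edgeR called no glue gene in any comparison. Without tuSz1 replicate 3 it called 5 of the 6 higher in tuSz1 than in hopTum and 1 higher than in w1118, and with the 6 hopTum and w1118 libraries alone it called 5 lower in hopTum, whose sums (12427 to 16535 CPM) all lay below those of w1118 (47710.5 to 61617 CPM). Fat body markers, which include the larval serum proteins, summed to 74276 to 194729 CPM in tuSz1, 22063 to 78803 CPM in hopTum and 11836 to 23243 CPM in w1118, with Fbp1 at 0. Of the 4 tested, 2 were higher in tuSz1 than in w1118, and 1 was higher in each of the other comparisons. The 2 became 1 whichever library was left out. The 1 in tuSz1 over hopTum became 0 without hopTum replicate 1 or 3 or tuSz1 replicate 1 or 3 and 2 without hopTum replicate 2, and the 1 in hopTum over w1118 became 0 without w1118 replicate 1 or 2 or hopTum replicate 1 or 2. Without hopTum replicate 2, 1 fat body marker was called lower in hopTum than in w1118. In RNA of whole larvae, more cells of a type and more RNA per cell cannot be told apart.

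Not every PGRP gene was measured equally well. Counts were listed per transcript, and 5 of the 10 genes have 1 listed transcript while the other 5 have several. Of the 22 transcripts of the 10 genes, 9 had no count in any library. Exonic bases found in only 1 annotated transcript make up 3.34% of PGRP-LA (70 of 2097 bases), 28.7% of PGRP-SA, 32.6% of PGRP-LE, 36.4% of PGRP-LB and 62% of PGRP-SC1b, against 100% of PGRP-SC2, PGRP-SC1a, PGRP-SB1, PGRP-SD and PGRP-LF. The genes with the smallest such shares were also those with the fewest counts, with a total over the 9 libraries of 3 for PGRP-LA, 42 for PGRP-LE and 76 for PGRP-SA. For the genes with several transcripts a low value is therefore described as a low count, not as low expression.

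**Figure D1:**
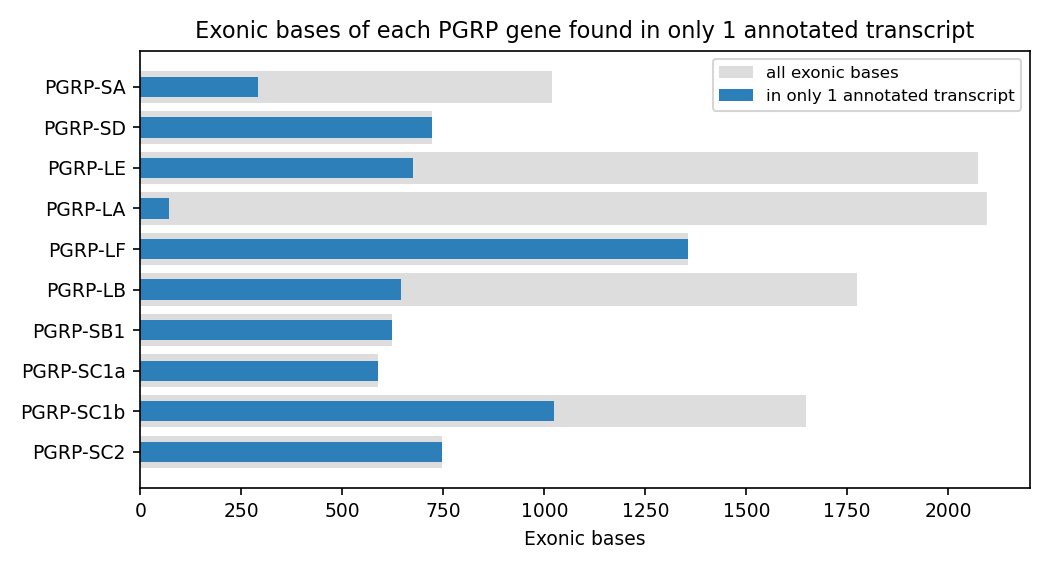
Exonic bases of each of the 10 PGRP genes (grey bars, horizontal axis in bases) and the bases found in only 1 annotated transcript (blue bars). The blue bar covers all exonic bases of 5 genes and only 70 of 2097 bases of PGRP-LA.

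Outside the 10 genes, the table holds 3 further family symbols with 14 transcripts and 258 counts in all. PGRP-LC, the main membrane receptor of the IMD pathway, had 19, 33 and 16 counts in tuSz1, 4, 7 and 17 in hopTum and 24, 42 and 44 in w1118. Its counts were lower in every hopTum library than in any w1118 library, without passing the test (a log2 fold change of -1.57 with SE 0.6, edgeR adjusted p = 0.0914). PGRP-LD had 0 to 1 counts in tuSz1, 2 to 6 in hopTum and 2 to 18 in w1118. PGRP-SB2, next to PGRP-SB1 on chromosome 3L, was listed at 0 in all 9 libraries. Exonic bases found in only 1 annotated transcript make up 2.38% of PGRP-LC, 9.96% of PGRP-LD and 2.91% of PGRP-SB2. Their values too are therefore described as counts, not as expression.

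Of the 10 genes, 8 passed the filter on low counts and entered the edgeR quasi-likelihood test across 9106 genes. PGRP-LA and PGRP-LE did not. PGRP-SC1b and PGRP-SA had at most 7 counts in each w1118 library and so entered through the other genotypes, and the counts and medians over the 8 genes are given as descriptions only. In tuSz1 against w1118 the call at an adjusted p under 0.05 was made for 5 genes, all higher, where 16.3% of all tested genes were called and 9.98% were called higher. Of the 6 that did not enter in that way, 4 were called. In tuSz1 against hopTum it was made for 3, all higher, against a background of 9.66% called and 5.52% called higher. Between hopTum and w1118 edgeR called 0 of the 8, against 18.1% of all tested genes, with 2 (PGRP-SB1 and PGRP-SD) at an unadjusted p under 0.05, against 32.3%. DESeq2 called 2 there, PGRP-SB1 lower and PGRP-SC1a higher, where it called 18.7% of genes. All libraries of the genotypes lay apart for 6 of the 8 genes in tuSz1 against w1118, all higher (beside 38.6% of all tested genes, 21.4% higher), for 4 in tuSz1 against hopTum, all higher (29.1% and 13.7%), and for 2 in hopTum against w1118, both higher (39.0% and 20.4%). The comparisons share libraries, so they are not independent of each other.

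The median log2 fold change of the 8 tested genes was 1.69 in tuSz1 over w1118, beside 0.08 over all tested genes. Over the 6 genes with a mean count of at least 50, which leaves out PGRP-SC1b and PGRP-SA, it was 1.28 and 3 were called, without PGRP-SC2. Over the 8 genes it was 1.68 beside 0.03 in tuSz1 over hopTum and 0.03 beside -0.05 in hopTum over w1118. With scaling to total counts the median for tuSz1 over w1118 became 0.83, while that of all genes became -0.7, and 2 of the 8 genes were called. The calls in tuSz1 against w1118 numbered 0 without w1118 replicate 3, 2 without w1118 replicate 1, w1118 replicate 2 or tuSz1 replicate 3, and 3 without tuSz1 replicate 2. With the replicate number as a block they numbered 3. In tuSz1 against hopTum the 3 calls became 1 without hopTum replicate 1 or 3. Without tuSz1 replicate 3, the library that stood apart, the log2 fold changes over w1118 were 1.54 for PGRP-LB, 0.99 for PGRP-LF, 2.86 for PGRP-SC1a, 3.43 for PGRP-SC1b and 1.31 for PGRP-SC2, of which PGRP-LB and PGRP-SC1b passed. Those over hopTum were 1.8 for PGRP-LB, 1.55 for PGRP-SC2 and 1.68 for PGRP-SD, and all 3 passed.

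**Figure D2:**
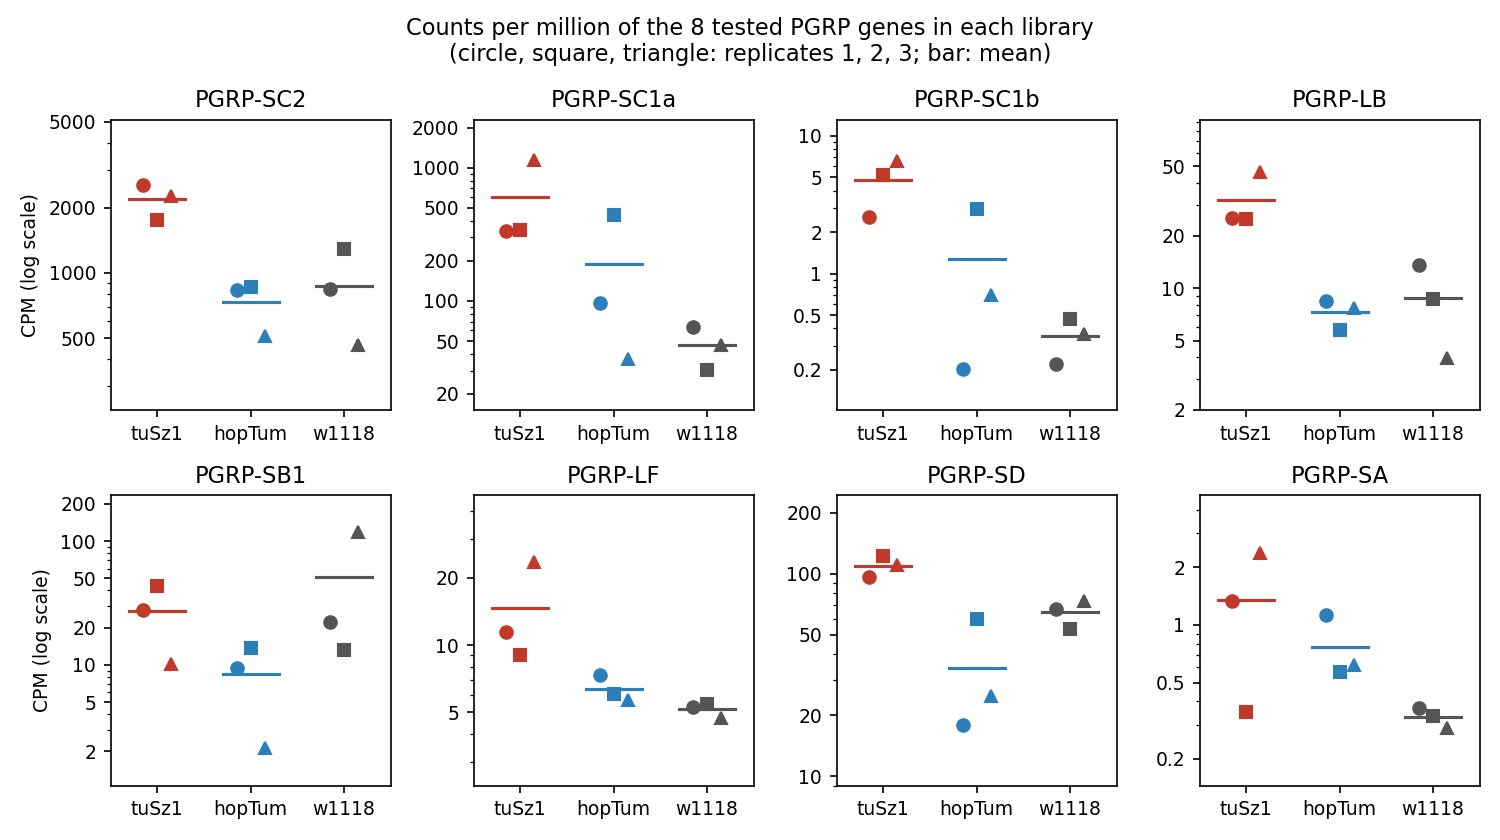
CPM on a log axis for the 8 tested PGRP genes in tuSz1, hopTum and w1118, with 1 point per library (circle, square and triangle for replicates 1, 2 and 3) and a bar at the mean. All tuSz1 points of PGRP-SC2, PGRP-SC1a, PGRP-SC1b, PGRP-LB, PGRP-LF and PGRP-SD lie above all w1118 points, while PGRP-SB1 and PGRP-SA overlap.

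Among recognition genes, PGRP-SD (chromosome 3L, 7651180 to 7651900 in the dm6 build, plus strand) had 96.2, 122 and 109.7 CPM in tuSz1, 18, 59.7 and 24.8 CPM in hopTum and 67, 53.5 and 73.2 CPM in w1118. Every tuSz1 library was above every library of the other genotypes, and hopTum replicate 2 lay within the w1118 range while the other 2 hopTum libraries lay below it. PGRP-SD was 3.2-fold higher in tuSz1 than in hopTum (a log2 fold change of 1.68 with SE 0.38, edgeR adjusted p = 0.0181). This call was lost without hopTum replicate 1, hopTum replicate 3 or tuSz1 replicate 2 (adjusted p = 0.0712, 0.0682 and 0.0514, edgeR). It was also lost with the 6 libraries compared alone (adjusted p = 0.0519, edgeR). The log2 fold change became 2.35 without hopTum replicate 2. The differences of tuSz1 and of hopTum from w1118 did not pass, at 0.76 (95% interval -0.06 to 1.58) and -0.92 (-1.74 to -0.09) on the log2 scale. Without hopTum replicate 2, hopTum was lower than w1118 by a log2 fold change of -1.59 (adjusted p = 0.00418, edgeR), and under total count scaling by -1.35 (adjusted p = 0.026, edgeR), where the difference of tuSz1 from w1118 was -0.02. PGRP-SD overlaps CG7492 on the other strand, and as the strand setting of the counting is not given, reads of the pair cannot be told apart.

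PGRP-SA (chromosome X, 11561643 to 11562779, plus strand) had 14, 4 and 20 counts in tuSz1, 11, 6 and 7 in hopTum and 5, 5 and 4 in w1118. All came from 1 of its 2 listed transcripts. In CPM these are 1.35 ± 1.02 in tuSz1, 0.768 ± 0.309 in hopTum and 0.33 ± 0.0391 in w1118 (SD, n = 3 each). The hopTum values were all above the w1118 values, and tuSz1 replicate 2 fell within the w1118 range. The log2 fold change was 1.98 (0.24 to 3.72) for tuSz1 over w1118 and 1.18 (-0.58 to 2.95) for hopTum over w1118, with adjusted p = 0.114 and 0.335 (edgeR).

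The IMD receptor gene PGRP-LE (chromosome X, 15801153 to 15803880, minus strand) had 0, 4 and 9 counts in tuSz1, 6, 0 and 1 in hopTum and 4, 10 and 8 in w1118, and the genotypes overlapped. PGRP-LA (chromosome 3L, 9334332 to 9338336, plus strand) had 0 counts in all tuSz1 and all hopTum libraries and 1, 0 and 2 in w1118. A count of 0 in a tuSz1 library allows up to 0.262 to 0.357 CPM over the few bases counted. Neither gene was compared between genotypes.

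PGRP-LF (chromosome 3L, 9349609 to 9351489, plus strand), the membrane antagonist, had 11.5, 9.01 and 23.5 CPM in tuSz1, 7.35, 6.03 and 5.71 CPM in hopTum and 5.29, 5.47 and 4.7 CPM in w1118. The 3 genotypes did not overlap, and tuSz1 replicate 3 was highest. PGRP-LF was 2.83-fold higher in tuSz1 than in w1118 (a log2 fold change of 1.5 with SE 0.41, edgeR adjusted p = 0.0273). The call was lost without tuSz1 replicate 3 (0.99, adjusted p = 0.13, edgeR), without each w1118 replicate (adjusted p = 0.0612 to 0.0964, edgeR), with the replicate block (1.43, adjusted p = 0.0765, edgeR) and under total count scaling (0.62, adjusted p = 0.273, edgeR). It was also lost with no filter on low counts and with the 6 libraries alone (adjusted p = 0.0597 and 0.0545, edgeR). The differences of tuSz1 from hopTum (1.2, 0.31 to 2.09) and of hopTum from w1118 (0.3, -0.59 to 1.19) did not pass. PGRP-LA, PGRP-LC and PGRP-LF lie side by side on chromosome 3L. PGRP-LA was not tested and PGRP-LC was not called. With 3 counts for PGRP-LA and 206 for PGRP-LC over all libraries, against 841 for PGRP-LF, the neighbours were not compared. PGRP-LF shares exonic bases with UGP on the other strand, so the limit given for PGRP-SD applies.

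The amidase gene PGRP-LB (chromosome 3R, 11452849 to 11460552, minus strand) had 25.4, 24.9 and 46.4 CPM in tuSz1, 8.38, 5.74 and 7.64 CPM in hopTum and 13.5, 8.67 and 3.98 CPM in w1118. Each tuSz1 library exceeded all others, while the hopTum values fell inside the w1118 range. PGRP-LB was 4.43-fold higher in tuSz1 than in hopTum (a log2 fold change of 2.15 with SE 0.46, edgeR adjusted p = 0.0136), and this call held in all 16 alternatives, with values of 1.64 to 2.3. Against w1118 the log2 fold change was 1.89 (with SE 0.46, edgeR adjusted p = 0.0159), lost without w1118 replicate 2 or 3 (adjusted p = 0.0637 and 0.0517, edgeR) and under total count scaling (1.04, adjusted p = 0.115, edgeR). hopTum differed from w1118 by -0.26 (-1.24 to 0.72).

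Of the 6 listed PGRP-LB transcripts, 3 had counts. The most counted held 259, 283 and 379 counts in tuSz1, 74, 58 and 84 in hopTum and 173, 119 and 41 in w1118. Another held 2, 1 and 1 counts in tuSz1, 1, 0 and 1 in hopTum and 6, 4 and 12 in w1118, where the highest values were in w1118. The third held 6, 1 and 9 counts in tuSz1, 7, 3 and 2 in hopTum and 4, 7 and 2 in w1118, and the genotypes overlapped. Nearly all counts of the gene thus came from 1 transcript. As 36.4% of its exonic bases are found in only 1 annotated transcript, these counts do not show which transcript was used most.

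The 3 SC amidase genes lie within chromosome 2R, 8709733 to 8717695, all on the plus strand, and PGRP-SC2 and PGRP-SC1a were the most counted of the family. Per kilobase of exon, which allows a comparison between genes with 1 transcript, PGRP-SC2 averaged 2938 CPM in tuSz1, 985 in hopTum and 1162 in w1118. PGRP-SC1a averaged 1035, 324 and 79.2 CPM per kilobase in tuSz1, hopTum and w1118. The same measure gave 152, 47.4 and 89.5 for PGRP-SD, 43.5, 13.5 and 81.9 for PGRP-SB1 and 10.8, 4.7 and 3.8 for PGRP-LF in that order of genotypes. PGRP-SC2 held 62.7% to 83.7% of the 10 genes' counts in tuSz1, 62% to 86.7% in hopTum and 65.3% to 92% in w1118.

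PGRP-SC2 (8716950 to 8717695) had 2552, 1747 and 2277 CPM in tuSz1, 837, 859.6 and 509 CPM in hopTum and 845, 1291 and 465 CPM in w1118. The tuSz1 libraries were above all others, and hopTum and w1118 overlapped. In tuSz1 it was 2.98-fold higher than in hopTum (a log2 fold change of 1.58 with SE 0.4, edgeR adjusted p = 0.0286) and 2.53-fold higher than in w1118 (1.34 with SE 0.4, edgeR adjusted p = 0.0388). The call against hopTum was lost without any 1 of the hopTum replicates or without tuSz1 replicate 1 (adjusted p = 0.0507 to 0.111, edgeR), and that against w1118 without any 1 of the tuSz1 replicates or without w1118 replicate 1 or 3 (adjusted p = 0.0522 to 0.116, edgeR). Under total count scaling these values were 1.2 and 0.54, and neither passed (adjusted p = 0.0505 and 0.291, edgeR). The call against w1118 was also lost with DESeq2 scaling in edgeR, with the 50 most counted genes left out and with the 6 libraries alone. It was lost as well with no filter on low counts and with a mean count of at least 50 (adjusted p = 0.0506 to 0.083 over these settings, edgeR). It held in 5 of 16 alternatives. hopTum differed from w1118 by -0.24 (-1.09 to 0.61).

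PGRP-SC1a (8709733 to 8710320) had 333, 339.8 and 1152 CPM in tuSz1, 96.5, 439 and 36.4 CPM in hopTum and 63.2, 30.2 and 46.3 CPM in w1118. tuSz1 lay wholly above w1118, while hopTum spread over both ranges, with replicate 2 high. The rise over w1118 was 13.1-fold (a log2 fold change of 3.71 with SE 0.96, edgeR adjusted p = 0.0317). The call was lost without tuSz1 replicate 2 or 3, without each w1118 replicate (adjusted p = 0.055 to 0.116, edgeR) and with the replicate block (3.62, adjusted p = 0.0926, edgeR). It was also lost with no filter on low counts (3.5, adjusted p = 0.106, edgeR). hopTum replicate 2 decided the other values: tuSz1 over hopTum was 1.67 (adjusted p = 0.291, edgeR) with it and 3.19 (adjusted p = 0.0197, edgeR) without it, and hopTum over w1118 was 2.03 with it and 0.52 without it. Without hopTum replicate 3 hopTum over w1118 passed (2.52, adjusted p = 0.0419, edgeR). hopTum replicate 2 was also the highest hopTum library in the summed midgut, fat body and cuticle markers (56073, 78803 and 1944 CPM), whose part in this was not tested.

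PGRP-SC1b (8713446 to 8715094), a close copy of PGRP-SC1a, had 27, 59 and 55 counts in tuSz1, 2, 31 and 8 in hopTum and 3, 7 and 5 in w1118. All came from 1 of its 2 listed transcripts, so the limit on genes with several transcripts applies. Its libraries took the order seen for PGRP-SC1a in that hopTum replicate 2 was the high hopTum library and tuSz1 lay above w1118. The log2 fold change of tuSz1 over w1118 was 3.72 (with SE 0.86, edgeR adjusted p = 0.0126), lost without w1118 replicate 3 (adjusted p = 0.0542, edgeR). Between tuSz1 and hopTum it was 1.88 (adjusted p = 0.162, edgeR), and 3.33 without hopTum replicate 2 (adjusted p = 0.0236, edgeR). Reads of near-identical copies may be lost or split, so the values of this pair are uncertain. Summed to 1 gene, they gave 3.71 for tuSz1 over w1118 (adjusted p = 0.0311, edgeR). PGRP-SC1a held 25034 counts over all libraries and PGRP-SC1b 197, so the sum mostly repeats the value of PGRP-SC1a.

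The ratio of PGRP-SC1a to PGRP-SC2 was 0.131, 0.194 and 0.506 in tuSz1, 0.115, 0.51 and 0.0714 in hopTum and 0.0749, 0.0234 and 0.0994 in w1118. It was highest in hopTum replicate 2 and tuSz1 replicate 3, so these neighbours did not keep a fixed proportion within a genotype.

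PGRP-SB1 (chromosome 3L, 16727299 to 16727989, minus strand), an amidase known as a target of IMD signalling, had 27.8, 43.4 and 10.1 CPM in tuSz1, 9.5, 13.7 and 2.11 CPM in hopTum and 22.1, 13.2 and 118 CPM in w1118. The genotypes overlapped, and w1118 replicate 3 stood far above the rest. The log2 fold change of hopTum over w1118 was -2.6 (with SE 0.99, edgeR adjusted p = 0.107) and -1.07 without w1118 replicate 3. tuSz1 over w1118 was -0.91 (-3.03 to 1.21) and became 0.62 without that library. DESeq2 called the difference of hopTum from w1118 (-2.58, adjusted p = 0.00913).

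**Figure D3:**
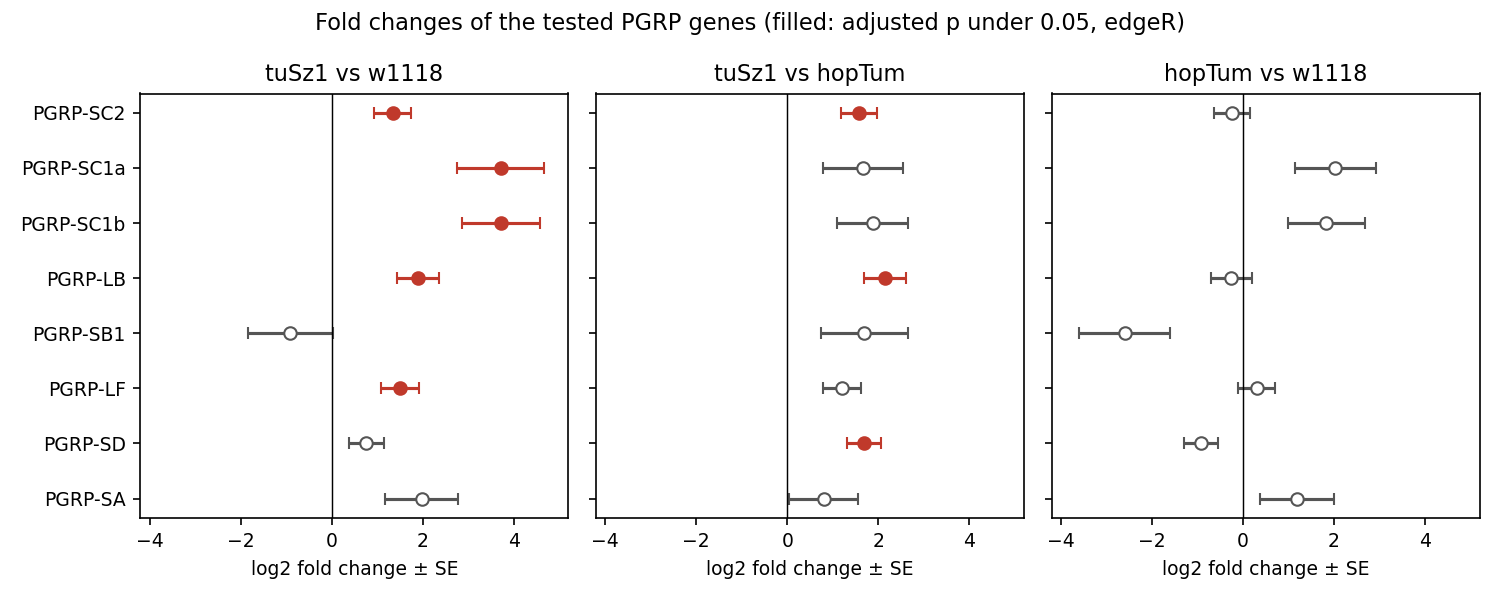
Log2 fold changes with their SE for the 8 tested PGRP genes in tuSz1 against w1118, tuSz1 against hopTum and hopTum against w1118. Filled red points have an adjusted p under 0.05 (edgeR): 5 in the first panel, 3 in the second and 0 in the third.

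Markers of the midgut, the tissue known for SC amidase and PGRP-LB expression, were read beside these genes. The 21 listed digestive and midgut genes summed to 113753, 88338 and 150357 CPM in tuSz1, 45123, 56073 and 23598 CPM in hopTum and 54061, 36679 and 22132 CPM in w1118. Of the 17 tested, 7 were higher and 1 lower in tuSz1 than in w1118, with a median log2 fold change of 1.48. Against hopTum 11 were higher, with a median of 1.98, and between hopTum and w1118 1 was higher and 3 lower, with a median of -0.6. The counts of midgut calls in tuSz1 over w1118 fell to 2 higher without w1118 replicate 2 or 3 and under total count scaling, and those over hopTum to 7 without hopTum replicate 1. The 3 lower in hopTum than in w1118 became 1 without w1118 replicate 1 or 2 or hopTum replicate 1 or 3. Jon25Bii was at 0 in all libraries.

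Set against this midgut sum, PGRP-SC2 had 22.4, 19.8 and 15.1 CPM per 1000 midgut CPM in tuSz1, 18.5, 15.3 and 21.6 in hopTum and 15.6, 35.2 and 21 in w1118, and the 3 genotypes overlapped. For PGRP-LB these values were 0.223, 0.282 and 0.308 in tuSz1, 0.186, 0.102 and 0.324 in hopTum and 0.249, 0.236 and 0.18 in w1118, again with overlap. PGRP-SC1a had 2.93, 3.85 and 7.66 in tuSz1, 2.14, 7.83 and 1.54 in hopTum and 1.17, 0.823 and 2.09 in w1118, so that tuSz1 stayed above w1118. The part of the midgut in the PGRP differences was not tested beyond these ratios.

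**Figure D4:**
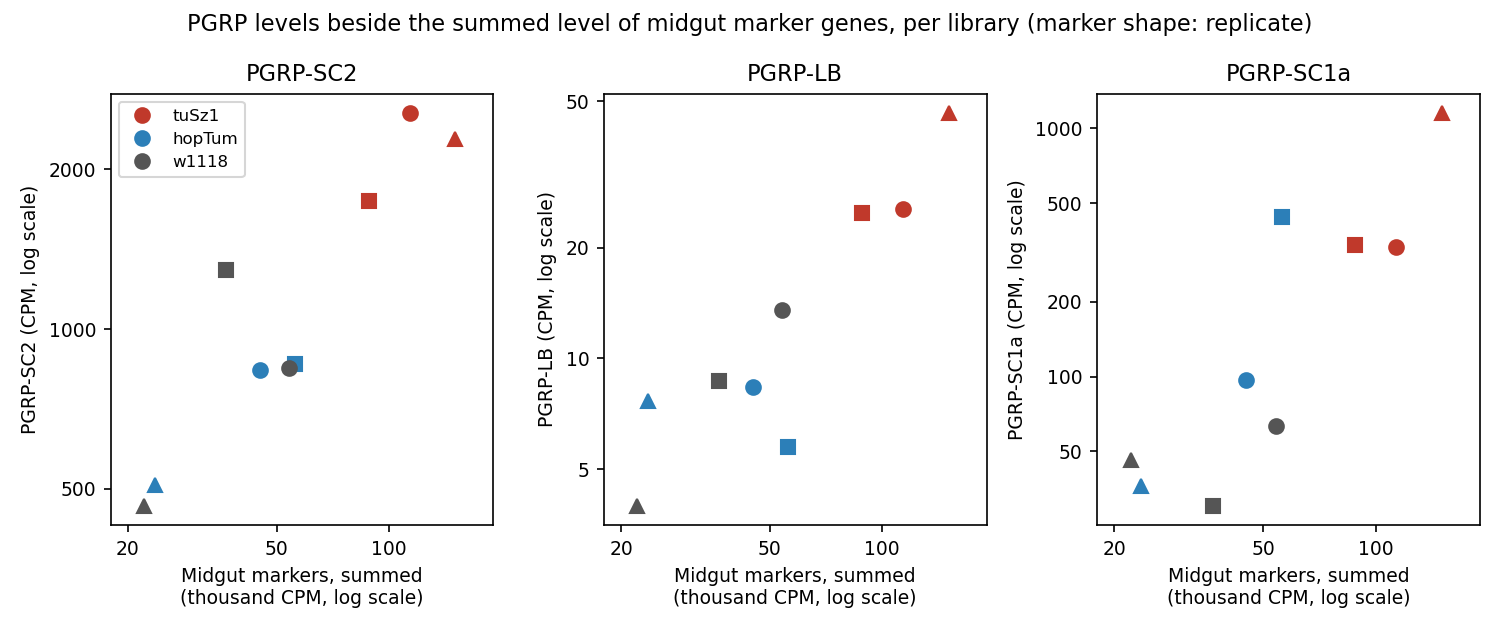
CPM of PGRP-SC2, PGRP-LB and PGRP-SC1a (vertical, log scale) against the summed CPM of midgut marker genes (horizontal, in units of 1000 CPM, log scale) in the 9 libraries, coloured by genotype with 1 shape per replicate number. The 3 tuSz1 libraries lie farthest right in each panel, at 88338 to 150357 CPM of midgut markers, and hopTum replicate 2 reaches 439 CPM of PGRP-SC1a, above tuSz1 replicates 1 and 2.

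For each called PGRP gene, the 3 genes with the most similar profile over the 9 libraries were found by the root mean square difference of centred log2 CPM. For PGRP-LB these were CG11162 (0.29), iotaTry, a trypsin (0.31), and mag (0.33), where the median over all genes compared was 1.15. For PGRP-SC2 they were CG31496 (0.26), mag (0.27) and alpha-Est4 (0.31), against a median of 0.98, so that mag, a digestive lipase gene, was near both. The nearest to PGRP-SC1a were CG31266 (0.31), CG8562 (0.46) and CG34456 (0.47), with a median of 1.81. PGRP-SC1b was nearest to Srr (0.36), CG17752 (0.39) and CG6415 (0.43), with a median of 1.32. PGRP-LF was nearest to Oatp33Eb (0.21), ND-23, a subunit of respiratory complex I (0.21), and Scox, an assembly factor of cytochrome oxidase (0.24), with a median of 0.83. PGRP-SD was nearest to Ilp5, an insulin-like peptide gene (0.27), CG11368 (0.34) and CG15422 (0.37), with a median of 1.04. Genes that differ alike between the 3 genotypes have similar profiles by this measure, and these likenesses describe 9 libraries only.

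Counts called in this and the following lists are descriptions, and several are near the share over all tested genes. That share was 16.3% in tuSz1 against w1118, 18.1% in hopTum against w1118 and 9.66% in tuSz1 against hopTum. Of 15 listed IMD signalling components, 11 were tested. Uev1A, a ubiquitin-conjugating enzyme variant needed for Tak1 activation, was the 1 call in tuSz1 over w1118, at 11.5 ± 2.56 CPM in tuSz1, 8.83 ± 5.92 CPM in hopTum and 0.956 ± 0.457 CPM in w1118 (a log2 fold change of 3.58, edgeR adjusted p = 0.00211). hopTum had 2 higher than w1118, Uev1A (3.2) and the adaptor Fadd (1.22). Fadd was lower in tuSz1, at 25.4 ± 2.43 CPM, than in hopTum, at 53.8 ± 7.69 CPM, the 1 call of this list between the mutants (-1.08, adjusted p = 0.0254, edgeR). This Fadd call was lost with the replicate block and without hopTum replicate 1 or 2 or tuSz1 replicate 1 or 2, and that of hopTum over w1118 without w1118 replicate 2 and under total count scaling. Dredd and key were listed at 0 in all libraries, which does not show absent expression, as their countable bases were not examined.

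Of 10 IMD regulators other than PGRPs, 5 were tested and 2 were lower in each mutant than in w1118. Over all 9106 tested genes, 576 were lower in tuSz1 and 606 in hopTum. The pathway inhibitor pirk, which binds PGRP-LC and PGRP-LE, averaged 0.146 ± 0.252 CPM in tuSz1, 0.247 ± 0.289 CPM in hopTum and 4.39 ± 0.696 CPM in w1118 (SD, n = 3 each). The POU factor nub, a repressor of immune genes in the gut, averaged 5.47 ± 0.983, 6.88 ± 2.9 and 17.6 ± 5.01 CPM in tuSz1, hopTum and w1118. The log2 fold changes of tuSz1 over w1118 were -4.7 for pirk and -1.69 for nub (adjusted p = 0.0123 and 0.0178, edgeR). With 0 to 0.437 CPM in tuSz1 and 0 to 0.565 CPM in hopTum, pirk lay near the floor of 3 counts in both. It thus entered the test through w1118, the size of its fold changes is uncertain, and its countable bases were not examined. The pirk call of tuSz1 held in all 14 alternatives that tested it, while that of hopTum was lost without w1118 replicate 3 or hopTum replicate 1. The nub call of tuSz1 was lost without w1118 replicate 1 or 2 or tuSz1 replicate 1 or 2, and that of hopTum without any 1 of the w1118 replicates or hopTum replicate 1 or 2.

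Antimicrobial peptide genes are the outputs of the cascade. Of 13 listed, 10 were tested, with 2 higher in tuSz1 and 3 higher in hopTum than in w1118, and 1 higher and 2 lower in tuSz1 than in hopTum. AttA, which shares sequence with AttB (listed at 0), averaged 65.1 ± 22.3 CPM in tuSz1, 0.933 ± 0.717 CPM in hopTum and 1.06 ± 0.577 CPM in w1118, and was called in tuSz1 over both (log2 fold change 5.93 over w1118 and 6.12 over hopTum). Drs, mainly a Toll target, averaged 59.2 ± 45.8 CPM in tuSz1, 1257 ± 1259 CPM in hopTum and 52.7 ± 40.2 CPM in w1118. Its calls, higher in hopTum than in w1118 (4.58) and lower in tuSz1 than in hopTum (-4.41), were lost without any 1 of the tuSz1 or hopTum replicates between the mutants, and without w1118 replicate 1 or 2 or hopTum replicate 2 or 3 against w1118. CecC was higher than in w1118 in both, at 7.43 ± 2.32 CPM in tuSz1 and 42.6 ± 4.01 CPM in hopTum, against 1.09 ± 0.952 CPM in w1118, and lower in tuSz1 than in hopTum (-2.51). DptB was called in hopTum over w1118 (a log2 fold change of 4.16, adjusted p = 0.0135, edgeR).

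Among the 20 listed Toll recognition and signalling genes 12 were tested. In tuSz1 over w1118 2 were higher and 0 lower, SPE (2.83) and nec (1.44), and the nec call was lost under total count scaling and without w1118 replicate 2 or tuSz1 replicate 3. In hopTum over w1118 4 were higher and 1 lower, with the largest changes in GNBP-like3 (3.89), SPE (2.99) and nec (1.9). SPE encodes the protease that cuts the Toll ligand, at 116 ± 62.4 CPM in tuSz1, 129.6 ± 39.7 CPM in hopTum and 16.3 ± 1.8 CPM in w1118. GNBP2, grass, spz and pll were listed at 0, with the limit given for Dredd and key. Between tuSz1 and hopTum 2 were lower, GNBP-like3 (-3.7) and modSP (-1.15). The protease modSP acts just after PGRP-SA and GNBP1, and its call was lost with the replicate block and without hopTum replicate 1 or tuSz1 replicate 1 or 2.

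Lysozymes also cut peptidoglycan, at its sugar chain. Of 7 listed, 5 were tested, with 1 higher and 1 lower in tuSz1 than in w1118, 3 higher in hopTum than in w1118 and 2 lower in tuSz1 than in hopTum. LysD averaged 24.2 ± 13.9 CPM in tuSz1, 5757 ± 3409.6 CPM in hopTum and 0.554 ± 0.606 CPM in w1118, and was called in all 3 comparisons. LysE averaged 12.4 ± 4.43, 1142 ± 736 and 7.21 ± 4.75 CPM in the same order, and was called in both comparisons with hopTum. LysS was called in hopTum over w1118 (334 ± 242 CPM in hopTum against 78.4 ± 40.3 CPM in w1118, log2 fold change 2.09), but not without w1118 replicate 2 or 3 or hopTum replicate 1 or 2. LysX was the 1 lower gene, at 48.5 ± 24.4 CPM in tuSz1, against 293 ± 269 CPM in w1118 (a log2 fold change of -2.59, edgeR adjusted p = 0.042), and this call was lost without any 1 of the tuSz1 replicates or without w1118 replicate 2 or 3. As the Lys genes are close copies, reads may be split among them.

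Markers of other tissues were read in the same way, with the same limit on genes at 0. Lamellocyte markers summed to 2762 to 3004 CPM in tuSz1, 16674 to 18772 CPM in hopTum and 81.5 to 92.1 CPM in w1118, with atilla at 0. Of 6 tested, 3 were higher in tuSz1 and 4 higher in hopTum than in w1118, and 3 were lower in tuSz1 than in hopTum. Plasmatocyte markers summed to 34 to 73.4 CPM in tuSz1, 63.7 to 97.8 CPM in hopTum and 39.1 to 90.8 CPM in w1118, with Hml and vkg at 0. Of 5 tested, 1 was higher in tuSz1 and 2 higher in hopTum than in w1118, and 1 was lower in tuSz1 than in hopTum. The 1 in tuSz1 over w1118 was kept without tuSz1 replicate 1 and lost without any other library, and under total count scaling 0 were higher and 1 lower. Trachea and epidermis markers summed to 216 to 386 CPM in tuSz1, 90.2 to 233 CPM in hopTum and 181 to 261 CPM in w1118, with trh at 0. Of 6 tested, 1 was lower in tuSz1 and 3 lower in hopTum than in w1118. The 1 was kept without w1118 replicate 3 and lost without any other library, and became 4 under total count scaling. The 3 became 1 without w1118 replicate 1 or 2 or hopTum replicate 1. Without hopTum replicate 2, 2 of these genes were higher in tuSz1 than in hopTum, against 0 with it.

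Larval cuticle genes were highest in tuSz1 in sum, with 1327, 3341 and 6802 CPM in tuSz1, 100.1, 1944 and 74.1 CPM in hopTum and 1198, 574 and 279 CPM in w1118. The tuSz1 libraries were above all w1118 libraries, and hopTum replicate 2 lay within the tuSz1 range. The median log2 fold change of the 7 tested was 1.82 in tuSz1 over w1118, 2.22 in tuSz1 over hopTum and -1.1 in hopTum over w1118, with 0, 1 and 0 called, the 1 being higher. Without hopTum replicate 2, 4 were higher in tuSz1 than in hopTum and 2 lower in hopTum than in w1118, and without w1118 replicate 1, 1 was higher in tuSz1 than in w1118. Lcp65Ad was at 0. The part of these tissues in the PGRP values was not tested.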

How the data were processed

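The authors deposited raw read counts, 1 file per library with 34111 RefSeq transcript entries, not normalized. The submitters' processing notes name FastQC 0.11.8, HISAT2 2.1.0, featureCounts 1.6.3 and the genome build dm6; the strand setting and the treatment of reads shared between transcripts are not given in the sources used here. Gene symbols and coordinates are from a RefSeq table, and strands and exons from an Ensembl annotation, both of the same assembly as dm6.

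Transcripts were matched to gene symbols (33766 with version, 146 without, 199 unmatched with 0.421% of counts) and summed. Genes were tested with the robust quasi-likelihood test of edgeR 4.0.16 (R 4.3.3) on all 9 libraries, after edgeR's standard low-count filter and TMM scaling, with Benjamini-Hochberg adjustment over 9106 genes, at 0.05; it was tested on simulated data. Standard errors are the log2 fold change over the root of the F statistic, and 95% intervals use the t distribution on the fitted degrees of freedom. Precision is set by depth and by 3 libraries per genotype, each from 20 pooled larvae. The labels used here do not state whether the pools were raised apart. Floors of 3 counts cover counting error only. Alternatives were DESeq2 1.42.0, other scalings and filters, a replicate block, transcripts kept apart and each library left out. Figures used Python 3.11.15 and matplotlib 3.10.9.

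All 10 members are named, with up to 3 called genes with the largest change per pathway list and comparison, and the 3 most similar profiles (pseudocount 0.5 CPM, mean of at least 5 CPM) per called member. Members and lists were chosen with earlier results of these data known. Replicates differed beyond sampling noise (chi-square 53.5 to 262.4 per degree of freedom). The symbols spheroide and LysC matched no entry.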

Additional observations from a re-analysis of the deposited data

How the results depend on the processing

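Each comparison was refitted under 10 other settings and without each library. PGRP genes called in tuSz1 over w1118 numbered 5 as reported, 2 under total count scaling, 2 with no filter on low counts, and 3 each with a mean count of at least 50, with the 6 libraries compared alone and with the replicate block; with 1 library left out they ran from 0 to 4. Over hopTum they numbered 3, and 1 to 4 with a library left out. In hopTum over w1118 they numbered 0, with 1 under total count scaling, 2 by DESeq2 and 0 to 1 with a library left out. Genes called over the whole table in tuSz1 over hopTum numbered 880 as reported, 1408 under total count scaling, 1365 by DESeq2 and 504 with the replicate block, and in tuSz1 over w1118 1485 as reported and 986 with the block; left-out libraries gave 507 to 842, 786 to 1487 and, in hopTum over w1118 (1649), 823 to 1538. The share called higher in tuSz1 over w1118 was 61.2% under TMM and 19.8% under total count scaling (57.2% and 27.6% over hopTum, 63.3% and 37.5% in hopTum over w1118). Direction turned in 5 cases, none called: PGRP-LB (0.19 without w1118 replicate 1, in a range of -0.61 to 0.19 over left-out libraries), PGRP-LF (-0.08, total count scaling) and PGRP-SC2 (0.17 without w1118 replicate 2, range -0.54 to 0.17) in hopTum over w1118, and PGRP-SB1 (0.62 without w1118 replicate 3, range -1.43 to 0.62) and PGRP-SD (-0.02, total count scaling) in tuSz1 over w1118. The cause was not tested, beyond the fewer genes or libraries that some settings hold. Deviations of libraries with the same number correlated at -0.4 to 0.189, with a mean of -0.096, beside a mean of 0.05 for different numbers. With 3 libraries per genotype, these values cannot decide whether libraries of the same number were handled together. The smallest counts limit PGRP-SA, PGRP-LE and PGRP-LA most.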
